A study of Brassica rapa subsp. pekinensis with 6 samples.

Results

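The 39 genes described here were higher at low temperature (LT) than at 22 °C in both Chinese cabbage (*Brassica rapa* ssp. *pekinensis*) lines studied. They were still higher after the plants had been moved to 28 °C. They were chosen by their own values, from 41173 genes on the Br135K microarray, of which 26948 exceeded a probe intensity (PI, the linear signal deposited for each gene) of 500 in 1 or more samples. With 50 added to each PI, a member had to be at least 2 times as high at 12 °C as at 22 °C, at least 2 times as high at 28 °C as at 22 °C, and to have a ratio of 28 °C to 12 °C between 0.5 and 2, in Kenshin and in Chiifu alike. The genes the study lists for heat adaptation or heat response were to be left out, but 0 of these 90 genes met the numeric conditions. All ratios below have 50 added to each PI, which draws ratios of weak signals toward 1.

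The inbred line Kenshin comes from subtropical and tropical regions and the inbred line Chiifu from temperate regions. Shoots of each line were sampled after about 3 weeks at 22 °C, after a further 2 days at 12 °C (LT), and after those 2 days plus 3 h at 28 °C. The labels give 1 sample for each line and temperature, 6 in all. The methods state that shoots of several plants were taken and do not say whether they were pooled. The study describes repeated experiments summarised as means, so a deposited value may be a mean of repeats whose spread is not in the table, and values are called samples here as the labels do. Every 28 °C plant had therefore passed through 12 °C, and an effect of 28 °C alone cannot be told apart from what LT left behind. The labels list no 22 °C sample taken 2 days later, so plant age and time of sampling cannot be told apart from LT. A gene raised by LT, or a rise by or answer to LT, below means a higher value at 12 °C than at 22 °C. The probes were designed on the Chiifu sequence, so a lower signal in Kenshin and a probe that matches Kenshin less well cannot be told apart either.

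Plants held at low, non-freezing temperature go through cold acclimation. In *Arabidopsis*, transcription factors of the CBF family are switched on early and raise genes for dehydrins, COR proteins, sugar and proline synthesis and membrane lipid desaturation, and after a return to warmth many of these transcripts are lost within hours (deacclimation). The amount of a transcript is set by both its synthesis and its decay, which an array does not measure separately.

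None of the 39 identifiers could be given a gene name, since the deposited table holds identifiers alone and 1 of the 41173 identifiers matched the RefSeq gene table used here. That gene was not a member. For the same reason no member could be placed among the cold regulon, RNA-binding cold protein, anthocyanin, circadian clock, osmolyte, membrane lipid, flowering and heat response lists, and the shoot identity of the samples was not checked against marker genes.

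The quartiles of all genes were nearly equal in the 6 samples, with medians between 965 and 1034 PI, but the signals of features for non-plant sequence differed more. The array carries 14 control features for the transgene markers GFP and Bar, which are no genes of *B. rapa*. They come as pairs whose names differ by the suffix AS, so they may not be 14 separate measures. The pair numbered 000007 stayed below the control feature of random sequence in every sample. Over the 14 features, the ratio of 28 °C to 22 °C had a median of 1.14 in Kenshin (0.847 to 1.93) and of 1.60 in Chiifu (0.985 to 2.16), and 13 of the 14 were above 1 in Chiifu. At 12 °C over 22 °C the medians were 1.11 in Kenshin (0.412 to 1.58) and 1.12 in Chiifu (0.719 to 1.33). At 28 °C over 12 °C single features reached 4.69 in Kenshin and 1.82 in Chiifu. The 28 °C sample of Chiifu thus stood apart in the median of these features, single features also lay far apart between the Kenshin samples, and what this contributes to the results was not tested. Scaling every sample to the same median of these features, an alternative chosen after seeing the data, left 22 genes that met the rule, 19 of them among the 39.

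**Figure D1:**
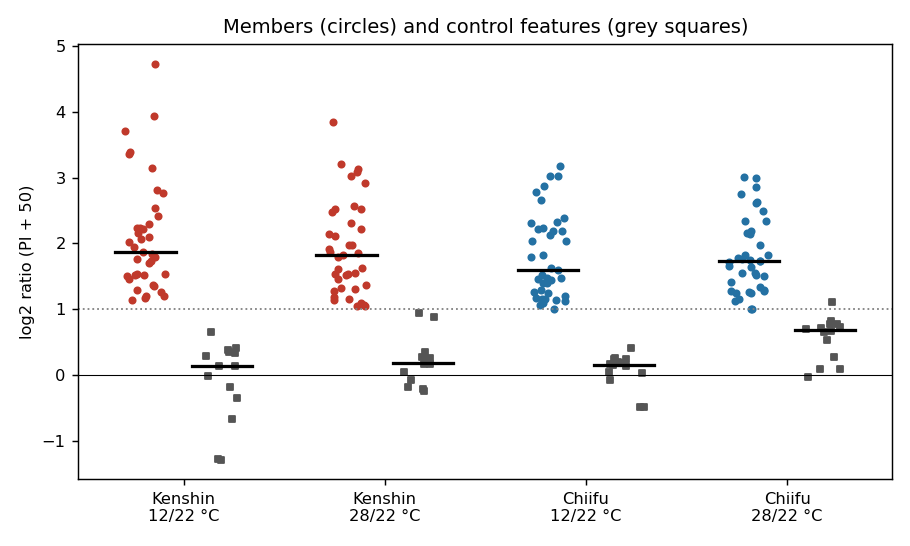
The log2 ratios to 22 °C of the 39 members (circles) and the 14 control features (grey squares) at 12 °C and at 28 °C are shown for Kenshin and Chiifu, with black bars at the medians and a dotted line at 2-fold. The median ratio of the control features is between 1.11 and 1.14 in 3 of the 4 columns and 1.60 in Chiifu at 28 °C over 22 °C, and single features spread widely in Kenshin, with ratios as low as 0.412 at 12 °C.

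At 12 °C, 470 genes were at least 2-fold higher than at 22 °C in both lines (1.74% of the 26948 genes), and 39 of these are the members. After 3 h at 28 °C, 177 of the 470 (37.7%) had fallen below 0.5 of the 12 °C value in both lines, and 0 had gone above 2 times that value in both. In 84 genes the ratio of 28 °C to 12 °C stayed between 0.5 and 2 in both lines. Of these, 39 were also at least 2-fold above 22 °C at 28 °C in both lines and are the members, 8.30% of the 470. The other 45 were less than 2-fold above 22 °C in at least 1 line, namely 12 in Kenshin alone, 14 in Chiifu alone and 19 in both. All of these counts use the contrasts that the rule used and are descriptions without a test.

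**Figure D2:**
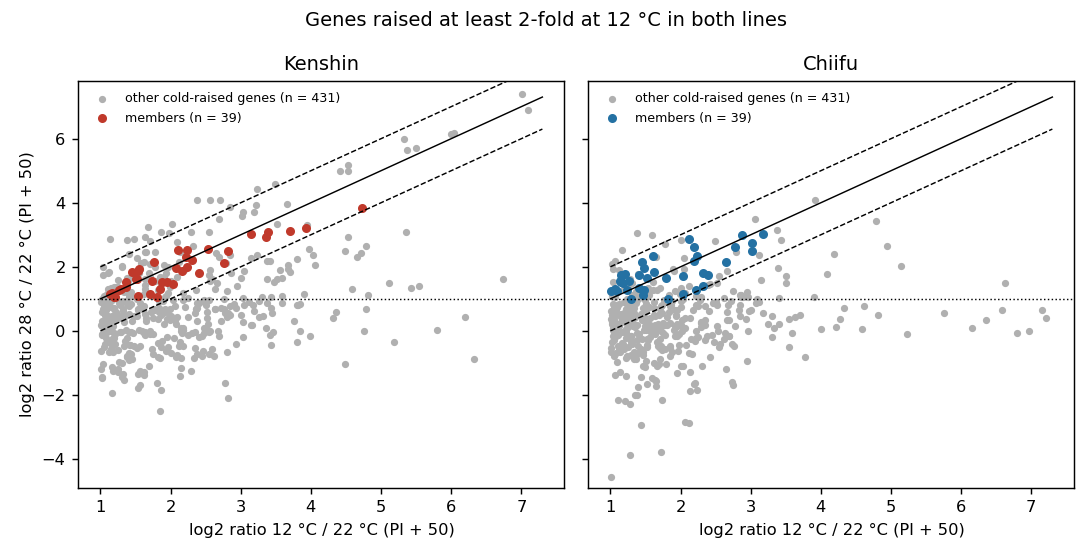
The log2 ratio of 28 °C to 22 °C is plotted against the log2 ratio of 12 °C to 22 °C for the 470 genes raised at least 2-fold at 12 °C in both lines, with the 39 members in colour. The solid line marks no change from 12 to 28 °C, the dashed lines a 2-fold change and the dotted line a 2-fold rise over 22 °C, and most grey points lie below the lower dashed line or below the dotted line in at least 1 of the panels.

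Many more genes kept the rise in a single line than in both. Taken alone, 390 genes met the conditions in Kenshin (1.45% of the genes with a PI over 500) and 245 in Chiifu (0.909%). The 39 shared genes are 10.0% of the Kenshin set and 15.9% of the Chiifu set. A choice made in a single line leaves the samples of the other line unused, so their values can be set beside it. Of the 390 Kenshin genes, 134 (34.4%) were raised at least 2-fold by LT in Chiifu as well, where 4.59% of all genes were, and 84 (21.5%) were at least 2-fold higher at 28 °C than at 22 °C in Chiifu, where 4.86% were. Of the 245 Chiifu genes, 91 (37.1%) were raised by LT in Kenshin, against 5.11% of all genes, and 64 (26.1%) were at least 2-fold higher at 28 °C than at 22 °C, against 5.38%. Since the 22 °C, 12 °C and 28 °C ratios of a line share samples, these shares are not independent of each other.

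The median PI of the members at 22 °C was well below that of all genes with a PI over 500, and at the other temperatures it was close to it in Kenshin at 28 °C alone. Their median PI at 22, 12 and 28 °C was 707, 2585 and 3240 in Kenshin and 630, 2260 and 2018 in Chiifu. The median of all genes with a PI over 500 was between 3179 and 3258 in every sample. At 22 °C, 19 members had a PI over 500 in both lines, 13 had 500 or less in both, and 7 were over 500 in a single line. The weakest 22 °C value of a member was 90.9 PI, for Bra005890 in Chiifu, where the control feature of random sequence gave 27.1. The 14 features for GFP and Bar reached 783 PI in Kenshin and 726 PI in Chiifu at 22 °C, and 17 of the 39 members exceeded all of them in each line.

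By the rule all members were lowest at 22 °C. Their ratio of 12 °C to 22 °C had a median of 3.67 in Kenshin (2.21 to 26.5) and of 3.04 in Chiifu (2.01 to 9.04). The ratio of 28 °C to 22 °C had medians of 3.54 (2.07 to 14.3) in Kenshin and 3.33 (2.01 to 8.08) in Chiifu. A rise of at least 4-fold at 12 °C was found for 18 members in Kenshin, for 16 in Chiifu and for 9 in both, while 8 members stayed under 3-fold in both lines. In all 39 members the lowest of the 4 values at 12 and 28 °C exceeded the higher of the pair at 22 °C, and in 23 it did so at least 2-fold, so the 22 °C samples did not overlap with the others across the lines. The rule, which compares samples within a line, largely fixes this, and the share of all genes without such overlap was not counted. Genes raised at least 2-fold in both lines made up 1.74% of all genes for 12 °C and 1.18% for 28 °C, each over 22 °C.

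**Figure D3:**
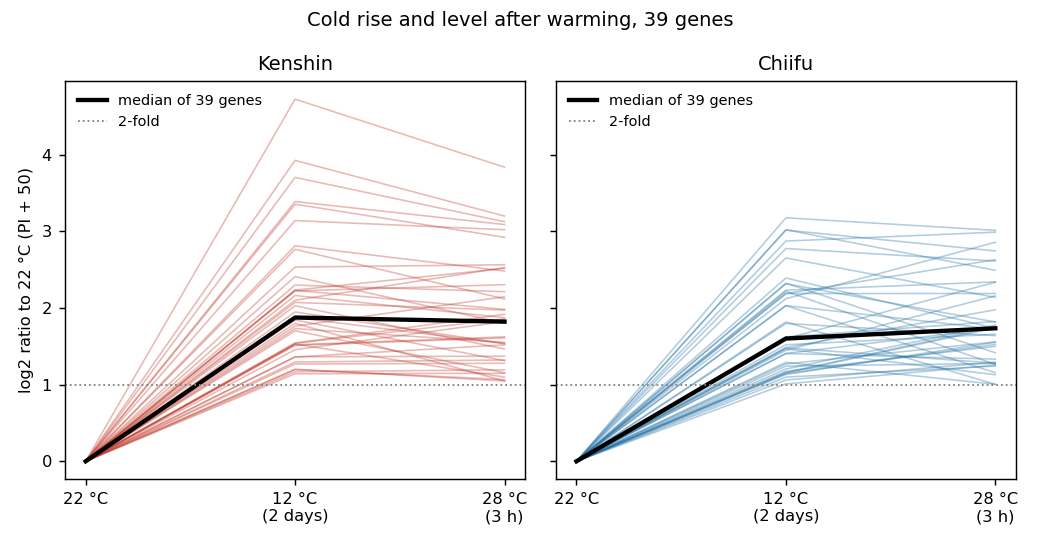
Each thin line is a member, drawn as its log2 ratio to 22 °C (PI + 50) in Kenshin and in Chiifu at 22 °C, 12 °C and 28 °C. The black line is the median over the 39 genes, which stays close to its 12 °C value at 28 °C in both panels, and the dotted line marks 2-fold.

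The members with the largest rise shared by the lines were strongly expressed genes that had almost the same values in Kenshin and Chiifu. At 22, 12 and 28 °C, Bra016338 had 2000.2, 18030.4 and 16600.1 PI in Kenshin and 2025, 18721 and 16710.4 PI in Chiifu. The ratios of 12 °C to 22 °C were 8.82 in Kenshin and 9.04 in Chiifu, and those of 28 °C to 22 °C were 8.12 in Kenshin and 8.08 in Chiifu. The values of the lines were nearly equal at each temperature. Bra039854 ranked next, by the smaller rise of the lines, in both comparisons. Its PI was 3312, 19431 and 19838 in Kenshin at 22, 12 and 28 °C, and 2941, 20436 and 18241 in Chiifu. The 12 °C value was 5.79 times that at 22 °C in Kenshin and 6.85 times in Chiifu.

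Bra026169 had the highest signal among the members once raised, ranked by the lowest of its 4 values at 12 and 28 °C. Its PI was 4362, 18887 and 25398 in Kenshin and 4827, 22188 and 22196 in Chiifu. At 28 °C it was 1.34 times as high as at 12 °C in Kenshin and nearly the same as at 12 °C in Chiifu. With Bra016338 and Bra039854 it belongs to the 5 members whose PI exceeded 10000 in all 4 samples taken at 12 and 28 °C.

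**Figure D4:**
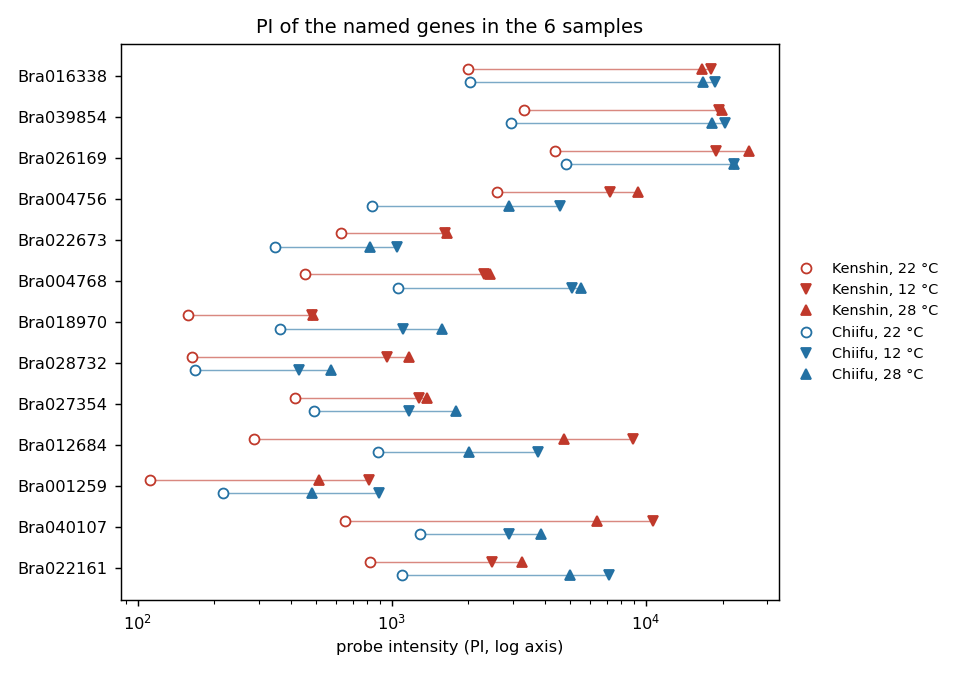
PI (log axis) is shown for 13 named members in Kenshin (red, upper row of each gene) and Chiifu (blue, lower row) at 22 °C (open circle), 12 °C (downward triangle) and 28 °C after 12 °C (upward triangle), 1 sample each. In every row the open circle is the lowest value, and the order of the triangles differs between genes and lines.

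The rule held the ratio of 28 °C to 12 °C between 0.5 and 2, and within these limits the members had no common direction. The ratio of 28 °C to 12 °C had a median of 0.914 in Kenshin (0.540 to 1.34) and 1.08 in Chiifu (0.517 to 1.67). On the linear scale, the rise over 22 °C that was left at 28 °C had a median of 84.7% of the rise at 12 °C in Kenshin and 109.7% in Chiifu. At least the whole rise was left for 16 members in Kenshin and 22 in Chiifu. It was under 50% for 1 member in Kenshin and for 4 in Chiifu. By direction, 8 members were higher at 28 °C than at 12 °C in both lines, 9 were lower in both, 14 were lower in Kenshin and higher in Chiifu, and 8 were higher in Kenshin and lower in Chiifu. The ratio stayed within 1.2-fold for 17 members in Kenshin, 14 in Chiifu and 7 in both. The control features had medians of 0.973 in Kenshin and 1.44 in Chiifu for the same ratio, and with samples scaled to these features 0 members were higher at 28 °C in both lines, 27 were lower in both, and the median ratio was 0.799 in Kenshin and 0.728 in Chiifu. That scaling shifted the median log2 ratio of all genes to -0.19 in Kenshin and -0.52 in Chiifu.

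Ranked by the line with the smaller ratio of 28 °C to 12 °C, Bra028732 stood highest. Its PI was 163, 953 and 1171 in Kenshin and 167, 430 and 576 in Chiifu. Its ratio of 28 °C to 12 °C was 1.22 in Kenshin and 1.30 in Chiifu, the Chiifu ratio being below the median of the control features. Bra027354 came next, with 414, 1275 and 1368 PI in Kenshin and 494, 1166 and 1792 PI in Chiifu. Ranked by the line with the larger ratio, Bra012684 stood lowest. It had 286, 8848 and 4759 PI in Kenshin and 878, 3744 and 2018 PI in Chiifu, so that the ratio of 28 °C to 12 °C was 0.540 in Kenshin and 0.545 in Chiifu, close to the limit of the rule. Its rise by LT in Kenshin, 26.5-fold, was the highest ratio of any member in either line, and at 28 °C it was still 14.3-fold above 22 °C there. Next came Bra001259, with 112, 811 and 515 PI in Kenshin and 217, 891 and 486 PI in Chiifu.

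The lines differed in how strongly single members answered LT, while their order changed from gene to gene. The rise at 12 °C was larger in Kenshin for 20 members and larger in Chiifu for 19, and the lines were within 1.2-fold of each other for 12. It was at least 2 times larger in Kenshin for 7 members, and for 1 in Chiifu. The same shares were not counted over all genes or over the 470 genes raised by LT in both lines. This tilt can therefore not be called particular to the members. The widest gap toward Kenshin was in Bra040107, whose PI was 652, 10623.5 and 6401 in Kenshin and 1286, 2882 and 3872 in Chiifu. By LT it was raised 15.2-fold in Kenshin and 2.19-fold in Chiifu. At 28 °C the gap was narrower, with 9.19-fold over 22 °C in Kenshin and 2.93-fold in Chiifu. Bra022161 showed the widest gap toward Chiifu. Its PI was 821, 2487 and 3240 in Kenshin and 1096, 7160 and 4998 in Chiifu, a rise by LT of 2.91-fold in Kenshin and 6.29-fold in Chiifu. These gaps come from 1 deposited value per line and temperature, possibly a mean of repeats, carry no error, and were not tested, since the rule used the same ratios.

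The level of a member in Kenshin relative to Chiifu was not used by the rule and could be compared across the 3 temperatures. The rule does limit how far this level can change from 12 to 28 °C. At 22 °C, 19 of the 39 members were higher in Kenshin (53.1% of all genes were), at 12 °C 29 were (56.3% of all genes), and at 28 °C 24 were (52.7%). The ratio of Kenshin to Chiifu over the members had medians of 0.988, 1.25 and 1.06 at 22, 12 and 28 °C. At 12 °C the control features had a median ratio of 1.22 and 11 of the 14 were above 1. With samples scaled to these features 17 members instead of 29 were higher in Kenshin at 12 °C, with a median ratio of 0.969, and 12 instead of 19 at 22 °C, with a median ratio of 0.765. A ratio of at least 2 was reached by 5 members at 22 °C (7.83% of all genes), 7 at 12 °C (4.55%) and 6 at 28 °C (9.54%). A ratio of 0.5 or less was reached by 4 members at 22 °C (8.31% of all genes), 3 at 12 °C (6.59%) and 2 at 28 °C (7.67%).

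Over the 3 temperatures, 12 members were higher in Kenshin each time (25.9% of all genes), 5 were higher in Chiifu each time (19.8%), and in 22 the order of the lines changed with temperature. At all 3 temperatures, 0 members had at least 2 times the Chiifu level in Kenshin (1.72% of all genes did), and 1 had at most 0.5 of it each time (3.68%). That member was Bra004768, with 453, 2299 and 2436 PI in Kenshin and 1052, 5127 and 5531 PI in Chiifu. The ratio of Kenshin to Chiifu was 0.457, 0.454 and 0.445 at these temperatures, while the rise by LT was nearly equal, 4.67-fold in Kenshin and 4.70-fold in Chiifu. Bra018970 was next in this order, with 158, 485 and 488 PI in Kenshin and 362, 1102 and 1573 PI in Chiifu.

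**Figure D5:**
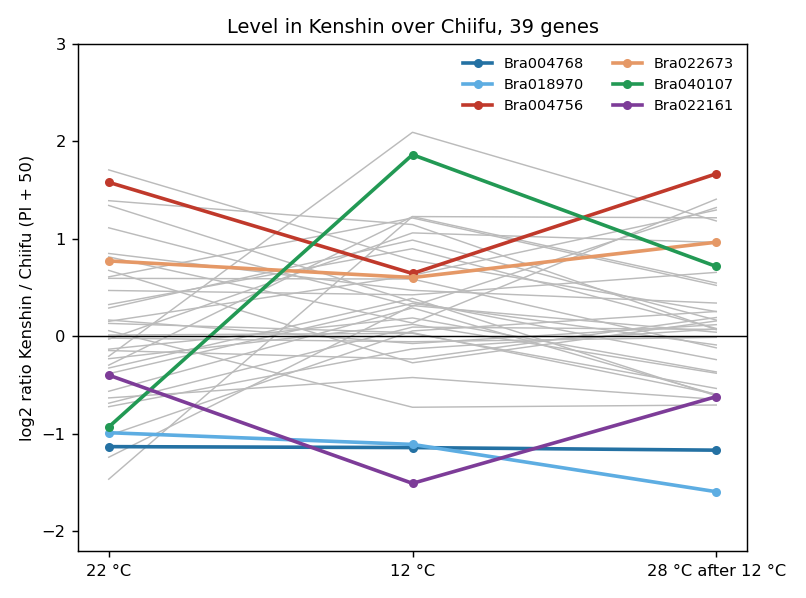
The log2 ratio of Kenshin to Chiifu (PI + 50) is plotted for each of the 39 members at 22 °C, 12 °C and 28 °C after 12 °C, 1 sample per line and temperature. Bra004768 runs flat near -1.1, Bra004756 and Bra022673 stay above 0, and Bra040107 and Bra022161 move in opposite directions at 12 °C.

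The difference between the lines over the 3 temperatures was tested with limma on log2(PI + 50), with temperature as a block and Benjamini-Hochberg adjustment over the 26948 genes. Of the 39 members 2 (5.13%) passed an adjusted p of 0.05, and 7.23% of all genes did, in either direction. Both were lower in Kenshin. The log2 difference of Kenshin minus Chiifu was -1.15 (standard error 0.14, adjusted p = 0.0188) for Bra004768 and -1.23 (standard error 0.19, adjusted p = 0.0320) for Bra018970, with the lower value in Kenshin at 3 of 3 temperatures. At an unadjusted p under 0.05 there were 14 members, 35.9% of them, and 21.9% of all genes. This excess was not kept under 2 alternatives, with 6 of 37 members (16.2%, against 21.5% of all genes) with samples scaled to the control features and 7 of 39 (17.9%, against 18.1%) without the 12 °C pair, and with an intensity trend there were 10 members (25.6%, against 22.9%). The members ranked highest in Kenshin over Chiifu did not pass. Bra004756 had 2588, 7190 and 9280 PI in Kenshin and 832, 4577 and 2885 PI in Chiifu, a log2 difference of 1.30 (standard error 0.26, adjusted p = 0.0611). Bra022673 had 628, 1615 and 1646 PI in Kenshin and 346, 1045 and 818 PI in Chiifu, a log2 difference of 0.78 (standard error 0.16, adjusted p = 0.0632).

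The fit had 2 residual degrees of freedom, and its scatter is the change of the line difference with temperature, with a median residual SD of 0.31 on the log2 scale for the members and 0.22 for all genes. Neither call held when the pair of samples of a single temperature was left out, with adjusted p between 0.0599 and 0.115 for Bra004768 and between 0.0743 and 0.136 for Bra018970. The differences themselves lay between -1.15 and -1.14 for Bra004768 and between -1.35 and -1.05 for Bra018970, with 1 residual degree of freedom in place of 2. With the variance fitted as a trend on intensity, Bra018970 had an adjusted p of 0.0554 and Bra004756 one of 0.0263. The samples of a line at 3 temperatures are not replicates grown apart, so these p-values measure the spread between these samples, which may be technical.

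The values next to the limits of the rule were as follows. Just inside, Bra037706 had a 2.01-fold rise by LT in Chiifu, and just outside, Bra009220 had one of 1.99-fold in Kenshin. For 28 °C over 22 °C, Bra001259 was inside with 2.01-fold in Chiifu and Bra038088 outside with 1.97-fold in Kenshin. The lowest ratio of 28 °C to 12 °C inside was 0.517, for Bra020140 in Chiifu, and the nearest below the limit was 0.464, for Bra016073 in Kenshin. The highest inside was 1.67, for Bra009105 in Chiifu, and Bra038606 was outside with 2.03 in Kenshin. The highest PI of Bra005890 was 514, and that of Bra014596, outside, was 499. A single condition kept out 65 genes for the rise by LT, 45 for 28 °C over 22 °C, 18 for too large a fall and 4 for too large a further rise from 12 to 28 °C, and 7 for a PI of 500 or less.

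The heat-related genes printed in the main tables of the study were not among the members. Its longer supplementary gene lists were not compared. Of the 90 heat-related genes left out, 89 exceeded a PI of 500, 33 were at least 2-fold higher at 28 °C than at 22 °C in both lines, and 1 was raised at least 2-fold by LT in both. This was Bra016348, the homolog of *KNAT6*, a KNOTTED1-like homeobox gene of the shoot meristem in *Arabidopsis*. Its PI was 273, 1004 and 2202 in Kenshin and 139.9, 969.8 and 475 in Chiifu. The ratio of 28 °C to 12 °C was 2.14 in Kenshin, outside the limits, and 0.515 in Chiifu, inside them. The study also names *BrHSFA2* (Bra000557), as the only gene upregulated by both LT and warming in both lines. It is missing from the count of genes raised by LT in both lines because of the value added to each PI. With that addition its rise by LT in Kenshin was less than 2-fold, while the PI printed in the study give more than 2-fold. With or without the addition, its ratio of 28 °C to 12 °C was above the limit of 2 in both lines. It would therefore not be a member either way.

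Of the 99 genes named anywhere in the study, 2 met the conditions in Kenshin alone and 5 in Chiifu alone. Both Kenshin genes are homologs of the HSP20/alpha crystallin gene AT5G47590. The other homologs of this gene that the study prints, Bra022083 and Bra022084, narrowly missed the conditions in Kenshin. Bra022051 had 1045, 3295 and 2588 PI in Kenshin and 1119, 1560 and 1914 PI in Chiifu. Its ratio of 12 °C to 22 °C was 3.05 in Kenshin and 1.38 in Chiifu. For Bra022079 this ratio was 2.15 in Kenshin and 1.47 in Chiifu. The Chiifu genes were Bra016348, the zinc finger gene Bra009000, the laccase gene *LAC12* (Bra009111), the heavy metal transport gene *HIPP27* (Bra009662) and the HSP20-like gene Bra031725. Laccases oxidise lignin precursors, and HSP20-like proteins are small chaperones. *LAC12* had 1118, 1176 and 2906 PI in Kenshin and 279, 1072 and 1201 PI in Chiifu, so that its ratio of 12 °C to 22 °C was 1.05 in Kenshin and 3.42 in Chiifu. The ratio of Kenshin to Chiifu for *LAC12* was 3.56 at 22 °C and 1.09 at 12 °C. All 5 Chiifu genes come from a list that the study chose for a level at 22 °C over 2-fold higher in Kenshin. That choice favours low 22 °C values in Chiifu, and so high ratios over 22 °C there. The differences between the lines in the response of these 7 genes were not tested.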

How the data were processed

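Cy3-labelled shoot RNA was hybridized to the NimbleGen Br135K array, with overlapping probes at the 3′ end of each gene model. The extraction protocol names total and polysomal RNA, and the labels give total RNA. The authors deposited 1 linear intensity per gene and sample. The submitters' processing notes name RMA, which normalizes between arrays, and no version. The paper describes repeated experiments, whereas the labels list 1 sample per line and temperature, so no value has an error between replicates and each may be a mean of repeats. The number of arrays limits the precision.

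Intensities were used as deposited. Ratios with 50 added were formed within a line, and Kenshin was set over Chiifu at each temperature. Line differences were fitted with lmFit and eBayes of limma 3.58.1, run in R 4.3.3. Other steps used Python 3.11.15, pandas 2.3.3, numpy 2.4.6 and matplotlib 3.10.9. On simulated data for the line difference in 26948 genes, limma recovered 0% of 200 genes changed by a log2 of 1, 37% at 2 and 71% at 3. No other gene was changed there, whereas 7.23% of genes were called in the real data. The adjusted threshold therefore differs, and these recovered shares need not hold for the real fit. The rule was also run on simulated data with large changes, alike in both lines, and little scatter. All simulated members were found there. This checks the calculation and does not show how the rule acts on real scatter.

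The 39 members, the lists and the tests were chosen with earlier results of these data known. Named members were the top 2 of each ranking: smaller rise of the lines at 12 °C and at 28 °C over 22 °C, signal once raised, Kenshin over Chiifu, Chiifu over Kenshin, largest and smallest ratio of 28 to 12 °C. To these came the widest gap between the lines each way and the genes nearest each limit. Genes of the study that passed in a single line, and those of the closing section, were named after their values had been seen. Alternatives were other added values, intensity minimums, fold cutoffs, ratio limits, normalizations, a variance trend and leaving out a temperature.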

Additional observations from a re-analysis of the deposited data

Results flagged for a closer look

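The median ratio of 28 °C to 12 °C over the 39 members lay below 1 in Kenshin (0.914) and above 1 in Chiifu (1.08), each from 1 sample per line and temperature. The difference was not tested. It kept these sides with quantile normalization (0.899 and 1.07) and with median scaling (0.894 and 1.12), and both medians were below 1 with samples scaled to the control features (0.799 and 0.728).

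The 14 control features for the GFP and Bar sequence did not enter the rule or the main fit, which use the deposited gene values. They were set beside the members for reference and used in an alternative scaling. Their median intensity in Chiifu at 28 °C was 361, where the random-sequence feature gave 30.5, and their median ratio of 28 °C to 22 °C in Chiifu was 1.60.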

How the results depend on the processing

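Of 13 alternatives, 10 left the number of members within 1.5 times 39 (between 26 and 48 genes). It was 168 with a fold cutoff of 1.5, 10 with a cutoff of 3, and 22 with samples scaled to the control features. The share of genes raised by LT in both lines that kept the rise was 14.3%, 5.68% and 4.10% under these settings, and 5.53% with the ratio of 28 °C to 12 °C held within 1.5-fold. The share of the Kenshin set that also passed in Chiifu lay between 5.84% (control feature scaling) and 12.5%, and that of the Chiifu set that also passed in Kenshin between 14.4% and 19.9%. Control feature scaling left 377 genes in the Kenshin set and 118 in the Chiifu set. In the limma fit 2 members were called under each of 9 alternatives (under 8 of them the same genes, with an intensity trend Bra004756 in place of Bra018970) and 0 without the samples of any single temperature. The single member with a 2-fold line ratio at all 3 temperatures became 2 with 0 or 16 added, with quantile normalization, with median scaling and with control feature scaling, 4 at a cutoff of 1.5 and 0 at 3. Of 155 recomputed line differences of named genes, 142 kept their sign and side of the threshold. The sign changed for Bra039854 with control feature scaling (-0.20, adjusted p = 0.661). It also changed when the samples of 1 temperature were left out for Bra012684 (-0.12 to 1.22), Bra040107 (-0.11 to 1.29) and Bra026169 (-0.19 to 0.025). These 4 genes did not pass the test under any setting run. The causes of these moves were not tested, apart from the cutoffs, which admit more or fewer genes by construction. The limma fit already pairs the lines by temperature, and no pairing by replicate could be made because the labels give 1 sample per line and temperature.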

Other observations

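Of the 39 members, 7 met the rule under all 13 alternatives, including the 3-fold cutoff and the scaling to control features. They were Bra004768, Bra016338, Bra026169 and Bra039854, described above, and Bra013714, Bra027257 and Bra030034. Bra013714 had 1054, 5133 and 4311 PI at 22, 12 and 28 °C in Kenshin and 1009, 8525 and 7052 PI in Chiifu. Bra027257 had 1333, 9660 and 7681 PI in Kenshin and 2173, 9035 and 7303 PI in Chiifu. Bra030034 had 183, 2337 and 1719 PI in Kenshin and 501, 1867 and 1667 PI in Chiifu. Each of these was raised at least 3-fold over 22 °C at both other temperatures in both lines.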
